A study of Mus musculus with 2 samples.

Results

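Colony stimulating factors and 3 interleukins of endothelium were followed through lung endothelial cells (ECs) after melanoma cells had been injected into the blood. The members were Csf1, Csf2, Csf3, Il6, Il33 and Il34, 6 of the 32285 genes listed in both count matrices, and they were found by gene symbol. The list was chosen by UMI counts already seen in these same libraries, so the levels and ratios of the members are a description and carry no test. Of the 6 members, 4 had at least 1 UMI in control ECs and 5 in ECs of injected mice, and 4 reached 50 EC UMIs over both libraries (Csf1, Csf2, Il33 and Il34).

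Lungs of wild-type C57BL/6 mice were taken 6 h after tail vein injection of 100 µl of phosphate-buffered saline (PBS) with 400000 B16-F10 cells, a mouse skin melanoma line, or of PBS alone. Pecam1-positive, Ptprc-negative cells were sorted to capture endothelium without leukocytes, and melanoma cells marked by a green tracker dye were collected from the injected lungs as well. Both groups were thus wild type, shared the strain, the injection route and the time, and differed in the injected cells. The labels give 2 mice for each treatment and no age. The methods of the study describe young male mice, with their age range in weeks, and 3 mice pooled for each sample. Each group was 1 single-cell library, so there was no replicate error, and every interval below is a 95% interval that covers counting error only.

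Csf1 and Il34 are separate ligands of the receptor Csf1r and keep monocytes and macrophages alive. Csf2 (GM-CSF) acts through Csf2ra and Csf2rb, is needed for mature alveolar macrophages and is made in the healthy lung by alveolar epithelium, while Csf3 (G-CSF) drives the production and release of neutrophils. Il6 signals through Il6ra and Il6st, and Il33 is a nuclear alarmin that is set free from damaged barrier cells and binds Il1rl1 with Il1rap.

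The 6 genes were placed by the GENCODE M21 annotation of GRCm38, and all are protein coding. Csf1 lies at chr3:107741048-107760469 on the minus strand, Csf2 at chr11:54247271-54249667 on the minus strand, Csf3 at chr11:98701263-98703629 on the plus strand, Il6 at chr5:30013114-30019981 on the plus strand, Il33 at chr19:29925114-29960718 on the plus strand and Il34 at chr8:110741829-110805924 on the minus strand. RefSeq promoter windows (GRCm38.p6), which run from 250 bases before a start site to 50 after it, were found for 4 of the 6 members. They were searched on both strands for the NF-kB consensus, the AP-1 motif TGANTCA and the C/EBP motif TTGCNNAA, which were present in 8.46%, 7.81% and 10.8% of 32851 windows of all genes. The 250 bases before the start sites of Csf1 (chr3:107760470-107760719, minus strand) and Csf2 (chr11:54249900-54250149, minus strand) are shown because Csf2 was found in ECs of only 1 library and Csf1 in every vessel class. Capitals mark the NF-kB match in Csf1 and the C/EBP match in Csf2.
Csf1 upstream: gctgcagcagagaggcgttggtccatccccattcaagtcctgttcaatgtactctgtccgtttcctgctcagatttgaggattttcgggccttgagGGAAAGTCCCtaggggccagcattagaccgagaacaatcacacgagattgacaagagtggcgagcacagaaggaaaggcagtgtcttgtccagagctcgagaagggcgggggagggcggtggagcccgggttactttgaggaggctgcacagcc
Csf2 upstream: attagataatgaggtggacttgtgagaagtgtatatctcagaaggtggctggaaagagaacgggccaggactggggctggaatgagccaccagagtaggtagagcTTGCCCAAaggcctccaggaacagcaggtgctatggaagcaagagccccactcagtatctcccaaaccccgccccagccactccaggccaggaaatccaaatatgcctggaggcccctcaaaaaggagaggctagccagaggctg
The Csf1 match began 154 bases before the start site and the Csf2 match 145 bases before it. The Csf2 start in RefSeq lies 232 bases from the start in GENCODE M21, so the Csf2 window does not hold the bases next to the GENCODE start. The Il6 window held a match to each of the 3 motifs (GGGATTTTCC 44 bases, TGAGTCA 249 bases and TTGTGCAA 128 bases before the start), and 2.16% of all windows held at least 2 of the 3 motifs. Of 2 Il33 windows, 1 held a C/EBP match, TTGCATAA, 85 bases before its start. A match is a stretch of letters and was not tested as a binding site.

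Messages of cytokines are often short-lived through the pentamer ATTTA in the 3′ untranslated region (UTR), the site at which Zfp36 proteins bind and start decay. The densest 30 bases of the Csf2 3′ UTR (chr11:54247329-54247358, minus strand, GRCm38, read from the GENCODE transcript) are shown because Csf2 had the highest density of the members, and capitals mark 5 overlapping pentamers.
Csf2 3′ UTR site: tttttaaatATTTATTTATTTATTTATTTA
The whole Csf2 UTR held 9 pentamers in 317 bases, or 28.4 per 1000 bases, and 0.0402% of 19921 genes with a UTR of at least 100 bases had as many per base. Csf3 held 8.97 and Il6 6.00 per 1000 bases. Csf1 (1.89), Il33 (1.79) and Il34 (1.65) were near the median of all genes, 1.35.

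In all, 85794655 UMIs were counted for control and 104978816 for B16-F10. Between 1000 and 5000 genes and with mitochondrial UMIs below 20%, 7830 and 7767 cells remained once 564 and 554 called doublets had been removed, and the libraries shared 36 of the 10498 and 11576 barcodes with at least 300 genes. The ECs, 7126 in control and 6391 in B16-F10, had median depths of 7514 and 8934 UMIs, and none of 8 endothelial markers was at 0 (12094 and 11214 UMIs in sum per 1000000 UMIs, in short CPM). They were named from markers as general capillary-like (gCap, 4898 and 4532 cells), aerocyte-like (aCap, 1464 and 979), artery-like (195 and 139), vein-like (340 and 341) and lymphatic-like (LEC, 49 and 48). A further cluster of ECs met no vessel list and stayed unnamed, with 7 control and 317 B16-F10 cells. Its leading genes included Sox9, Csf2, Fosl1, Hbegf, Bean1, Tubb6, Pdgfa, Prnd and Adamts4, although Csf2 was not used in clustering, and it is called Sox9-led below. Being almost all from 1 library, it cannot be told apart from a feature of that library. Another 173 and 35 ECs, led by Fabp4, Rbp7 and Aqp7, also stayed unnamed. The 8 macrophage and monocyte markers summed to 19.3 CPM in control ECs and 38.1 in B16-F10 ECs, with 8 of 8 higher, and 8 melanoma markers to 30.0 and 53.7. Free RNA, estimated from epithelial markers, made up at most 1.5% and 2.24% of EC UMIs.

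Csf2 appeared in ECs of injected lungs and was at 0 in control ECs. In control, 0 of 7126 ECs held a Csf2 UMI, which allows a share of cells with a UMI of up to 0.0421% (3 counts of the total) and does not limit cells that express the gene, and in the B16-F10 library 94 of 6391 ECs (1.47%, 1.19 to 1.80) held 705 Csf2 UMIs. The level in CPM was 0 in control and 12.0 (11.1 to 12.9) in B16-F10. Against a floor of 3 UMIs over all control ECs, Csf2 was at least 222-fold higher (log2 ratio at least 7.80). Of 4 members with 50 UMIs in all ECs, 1 was past 2-fold higher and 0 lower, beside 3.49% of 14359 genes higher and 3.46% lower. The 1 was Csf2, which met the 50-UMI limit through the B16-F10 library alone. Its call as past 2-fold thus followed from that limit and is no separate result. With each cell thinned to 2000 UMIs, 0.929% of B16-F10 ECs held a Csf2 UMI.

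The Sox9-led cells carried most of the message. They were 4.96% of B16-F10 ECs and held 612 of the 705 EC UMIs of Csf2 (86.8%, 84.1 to 89.2), at 209 CPM (193 to 226). The 7 control cells of the cluster held 0, and the intervals of this 0 reach 41.0% of cells and 64.9 CPM. Between the libraries, Csf2 in these cells was thus only 3.96-fold above the control floor of 3 UMIs (exact lower limit 3.21). Within the cluster the message was unequal: 65 of 317 cells (20.5%, 16.2 to 25.4) held any Csf2 UMI, 33 cells held at least 5, the richest held 50, and the 10 richest held 49.7% of the cluster's Csf2. Sox9, a transcription factor of progenitor cells, had a UMI in 116 of 317 cells (36.6%) and in 33 of the 65 Csf2-positive cells (50.8%). Fosl1, a partner in AP-1, stood at 339 CPM in the cluster and Hbegf, a ligand of the EGF receptor, at 1465. Summed markers of other cells in the 317 B16-F10 cells were set beside gCap-like ECs of that library. Sums were higher for 8 mural genes (282 against 42.8 CPM) and 6 platelet genes (101 against 27.2). They were also higher for 8 macrophage and monocyte genes (74.7 against 32.5, 3 of 8 at 0) and 8 epithelial genes (256 against 180). Sums were lower for 6 red cell genes (1067 against 1482) and 8 melanoma genes (36.5 against 51.0). The 8 endothelial genes summed to 8763 (11174 in gCap-like ECs), with 0 of those 8 at 0. Of the vessel lists, none of which named the cluster, gCap genes summed to 4431 (6962 in gCap-like ECs), aCap genes to 133 (207) and vein genes to 56.6 (247). Artery genes summed to 399 (97.0) and LEC genes to 4694 (1556). The part of other cells in the Csf2 level was not tested. The cluster's share of Csf2 moved with the clustering, to 78.0% with a limit of 500 genes per cell, 79.3% at resolution 1.6 and 79.0% when only the 6 members were left out of clustering.

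**Figure D1:**
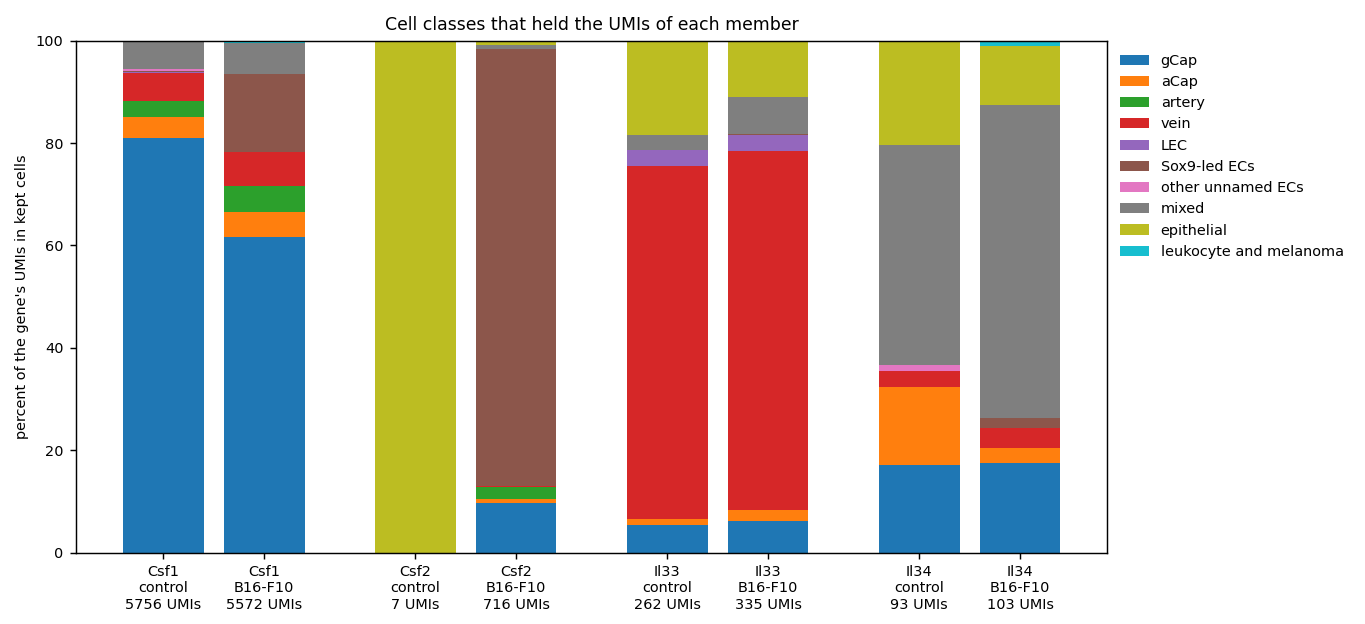
Percent of each gene's UMIs in kept cells (vertical axis) held by each cell class, as stacked bars for Csf1, Csf2, Il33 and Il34 in the control and B16-F10 libraries, with the gene's UMI count under each bar. In the B16-F10 library Csf2 sits mainly in Sox9-led ECs (85.5% of all its UMIs), Csf1 in gCap-like ECs (61.6%) and Il33 in vein-like ECs (70.1%).

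Outside the Sox9-led cells Csf2 was rare. The other ECs held 0 control and 93 B16-F10 UMIs, a level of 1.67 CPM and 30.8-fold above the control floor (exact lower limit 24.6). In gCap-like ECs there were 0 and 70 UMIs (1.80 CPM, 1.40 to 2.27), found in 24 of 4532 cells. This was 21.4-fold above the control floor (exact lower limit 17.0). Csf2 was the 1 of 2 members with 50 UMIs past 2-fold higher there, beside 3.21% of 13220 genes, and 0 were lower, beside 2.66%. Of these 70 UMIs, 58 lay in 12 cells of 1 of the 6 gCap clusters (5.47 CPM, 4.15 to 7.07). This cluster had 105 control and 1150 B16-F10 cells and was led by Lalba, Tmem252 and Adamts9. Its control cells held 0 Csf2 UMIs, with an interval of up to 4.27 CPM that overlaps the B16-F10 one. Within the cluster the log2 ratio over the control floor was only 0.66 (exact lower limit 0.31). One of the gCap-like cells held 28 UMIs (40%) with 4 of Fosl1 and 0 of Sox9. Without it the log2 ratio over the floor was 3.68 in place of 4.42 (exact lower limits 3.32 and 4.08). Artery-like ECs held 17 UMIs in 2 cells, of which 16 were in 1 cell. aCap-like ECs held 5 UMIs (0.457 CPM, 0.148 to 1.07), vein-like ECs 1 and LEC-like ECs 0. Free RNA could supply up to 0.241 CPM in the B16-F10 library, which lies within the aCap interval and below the gCap interval. Among gCap clusters it lay below the interval of the cluster led by Lalba only. It lay within the intervals of the others, such as 0.0593 to 0.840 and 0.202 to 1.20.

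Epithelial-like cells held all 7 Csf2 UMIs found in kept control cells, in 3 of 22 cells (20.9 CPM, 8.40 to 43.0). In the B16-F10 library they held 5 UMIs in 5 of 27 cells (14.2 CPM, 4.60 to 33.1). These intervals overlap. Among the 114 melanoma-like and B-like cells of the B16-F10 library, taken as a reference, 0 held a Csf2 UMI. By the same 3 counts this allows up to 2.63% of cells with a UMI at a median of 7312 UMIs. The 31 macrophage and monocyte-like cells of that library held 1.

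Csf1 was present in every vessel class of both libraries. All ECs held 5434 UMIs in control and 5209 in B16-F10, at 97.9 (95.4 to 101) and 88.7 CPM (86.3 to 91.2), a log2 ratio of -0.14 (-0.20 to -0.09). The share of ECs with a UMI was 41.0% and 39.9%, against 1 of 114 cells in the melanoma-like and B-like cells, and free RNA could supply 0.926 and 1.36 CPM. Without the Sox9-led cells, which held 17 and 845 of these UMIs, the ratio was -0.32 (-0.38 to -0.26).

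gCap-like ECs held less Csf1 after injection. They had 4667 and 3431 UMIs, at 130 CPM (127 to 134) in control and 88.0 (85.1 to 91.0) in B16-F10, a log2 ratio of -0.57 (-0.63 to -0.50), and 50.8% and 42.6% of cells held a UMI. The difference is thus well beyond counting error and short of 2-fold. All 6 gCap clusters had a lower level in B16-F10, each with its interval below 0. The ratios ran from -0.22 (-0.34 to -0.09) to -1.23 (-1.54 to -0.90), and the lowest was in the cluster led by Lalba, where Csf1 was 113 and 48.5 CPM. With the clusters weighted as in control the ratio was -0.43. In the gCap cells macrophage markers summed to 17.2 and 32.5 CPM and mural markers to 24.7 and 42.8, and their part was not tested.

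Artery-like ECs held more Csf1 after injection, with much of the difference in few cells. They had 179 and 281 UMIs, at 121 CPM (104 to 141) and 219 (194 to 246), a log2 ratio of 0.85 (0.57 to 1.13), and 48.2% (41.0 to 55.5) and 58.3% (49.6 to 66.6) of cells held a UMI. One B16-F10 cell alone held 76 of the 281 UMIs (27.0%), while the richest control cell held 8 of 179. Without the richest cell of each library the levels were 117 and 161 CPM and the ratio 0.46 (0.16 to 0.77), and without the 10 richest it was 0.24. Csf1, the 1 member with 50 UMIs in this class, was not past 2-fold, beside 1.80% of 7290 genes higher and 1.6% lower. The 8 artery markers summed to 6130 and 4394 CPM in these cells and the 6 platelet markers to 6.10 and 36.6, and their part was not tested.

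aCap-like ECs had the lowest Csf1 of the blood vessel classes in both libraries. They held 227 and 274 UMIs, at 17.1 CPM (15 to 19.5) and 25 (22.1 to 28.2), a log2 ratio of 0.55 (0.29 to 0.81). This difference moved with the mix of clusters: 175 control and 806 B16-F10 cells came from the first of 3 aCap clusters, in which Csf1 was 30.8 and 25.8 CPM (-0.26, -0.66 to 0.16), and the other two had ratios of 0.66 (-0.21 to 1.44) and 0.15 (-0.91 to 1.06). All 3 intervals include 0, and with clusters weighted as in control the ratio was 0.27. In aCap-like ECs gCap markers summed to 257 and 333 CPM (7 of 8 higher), vein markers to 23.3 and 38.9 (8 of 8 higher) and macrophage markers to 10.0 and 22.6 (6 of 8 higher), and their part was not tested. Csf1 was again the 1 member with 50 UMIs and was not past 2-fold, beside 2.14% of 11116 genes higher and 2.11% lower.

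In vein-like ECs Csf1 stayed within counting error, with 322 and 370 UMIs at 91.6 CPM (81.9 to 102) and 96.5 (86.9 to 107), a log2 ratio of 0.07 (-0.15 to 0.29). LEC-like ECs held 6 UMIs in each library, at 14.5 CPM (5.32 to 31.6) and 12.6 (4.61 to 27.3). In control the order of the levels was gCap, artery, vein, aCap and LEC, where the intervals of gCap and artery overlapped, as did those of aCap and LEC. In B16-F10 the order was artery, vein, gCap, aCap and LEC, with overlaps between vein and gCap and between aCap and LEC.

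**Figure D2:**
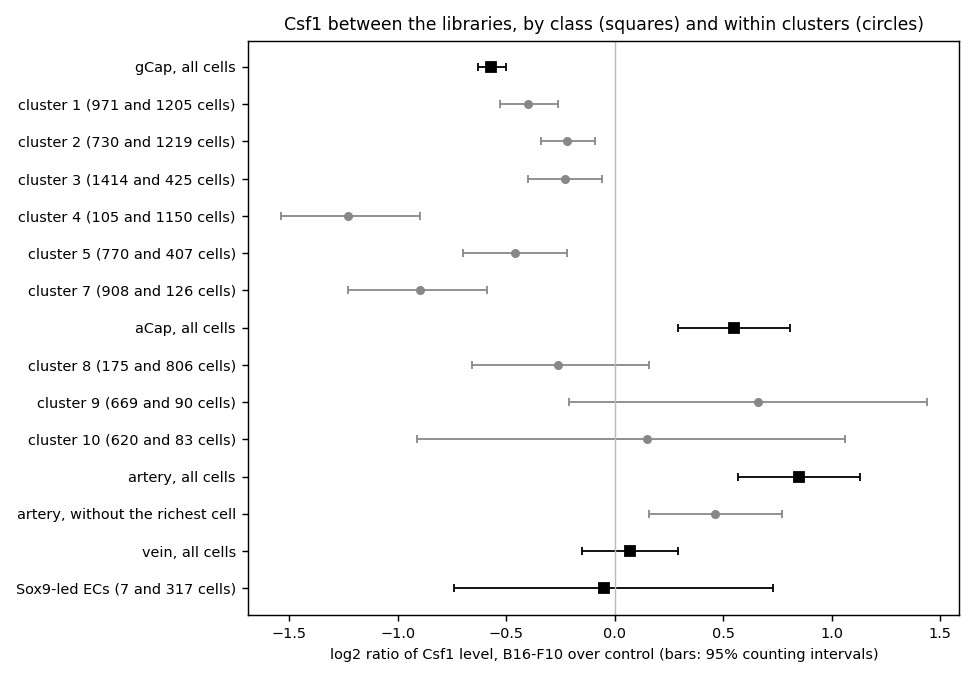
Log2 ratio of Csf1 (B16-F10 over control, horizontal axis) in each class (squares) and in the gCap and aCap clusters (circles), with 95% counting intervals; the artery class is also shown without its richest cells. The gCap points all lie left of 0, the artery square lies right of it at 0.85, and the 3 aCap clusters span 0.

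The highest Csf1 level among ECs was in the Sox9-led cells, at 288 CPM (269 to 308) from 845 UMIs in the B16-F10 library, and the 7 control cells held 17 UMIs (299 CPM, 174 to 479). The cluster held 16.2% of EC Csf1 UMIs in B16-F10 and 0.313% in control. Within the cluster, the 65 cells with a Csf2 UMI had 491 CPM of Csf1 (440 to 547) and the others had 228 (209 to 248), at median depths of 10236 and 9246 UMIs. Both genes were found in 55 cells, Csf1 alone in 128, Csf2 alone in 10 and neither in 124. The artery-like cell with 16 Csf2 UMIs also held 13 of Csf1.

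**Figure D3:**
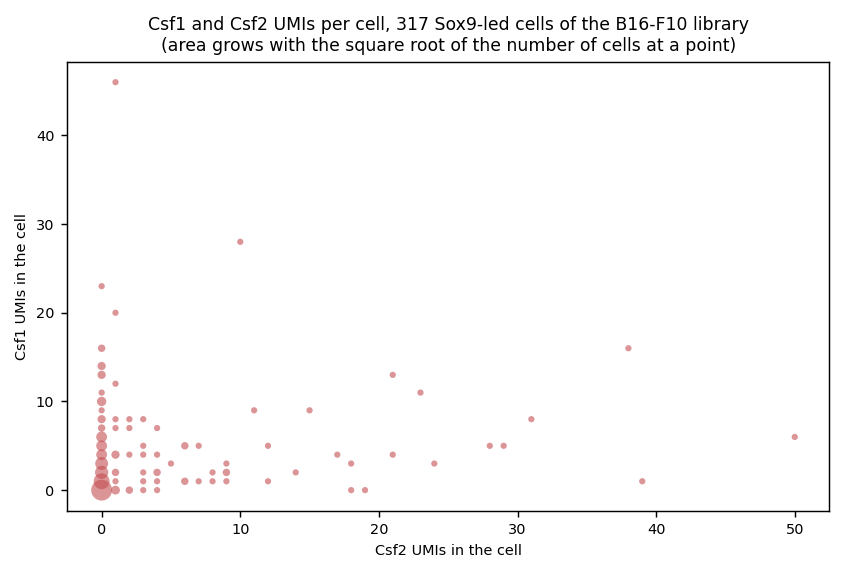
UMIs of Csf1 (vertical axis) and Csf2 (horizontal axis) in each of the 317 Sox9-led ECs of the B16-F10 library, with cells of equal counts drawn as 1 larger point. The richest Csf2 cell held 50 UMIs with 6 of Csf1, the richest Csf1 cell held 46 with 1 of Csf2, and 124 cells held neither.

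Other sorted cells with Csf1 were few. The mixed cluster of fibroblast and mural markers, with 51 and 81 cells, had 63.0 CPM (40.8 to 93.0) and 60.9 (44.1 to 82.1), and neutrophil-like cells, 3 and 16 in number, held 4 and 17 UMIs. The 31 macrophage and monocyte-like cells of the B16-F10 library held 1.

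Il33 was found mainly in vein-like ECs. They held 181 of 206 EC UMIs in control (87.9%) and 235 of 274 in B16-F10 (85.8%), at 51.5 CPM (44.3 to 59.6) and 61.3 (53.7 to 69.6). The log2 ratio was 0.25 (-0.04 to 0.54), and 100 of 340 and 111 of 341 vein-like cells (29.4% and 32.6%) held a UMI, so any difference was within counting error at this depth. Neither of the 2 members with 50 UMIs in vein-like ECs, Csf1 and Il33, was past 2-fold, beside 1.84% of 9655 genes higher and 1.31% lower. The richest B16-F10 vein-like cell held 17 UMIs and the richest control cell 6. Csf1 in Il33-positive and Il33-negative vein-like cells was 87.1 and 93.9 CPM in control and 107 and 90.6 in B16-F10.

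LEC-like ECs were second, with 8 and 10 UMIs (19.3 CPM, 8.34 to 38.1, and 20.9, 10.0 to 38.5), below the vein-like intervals. gCap-like ECs held 14 and 21 UMIs (0.391 and 0.539 CPM), aCap-like ECs 3 and 7 and artery-like ECs 0 in both libraries, where free RNA could supply 0.143 and 0.255 CPM. Over all ECs the ratio was 0.33 (0.06 to 0.60), from 3.71 and 4.67 CPM, and vein-like cells were 4.77% and 5.34% of ECs. Epithelial-like cells had the highest level, 143 CPM (106 to 190) in 22 control cells and 105 (73.8 to 145) in 27 B16-F10 cells, a ratio of -0.45 (-1.11 to 0.20).

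**Figure D4:**
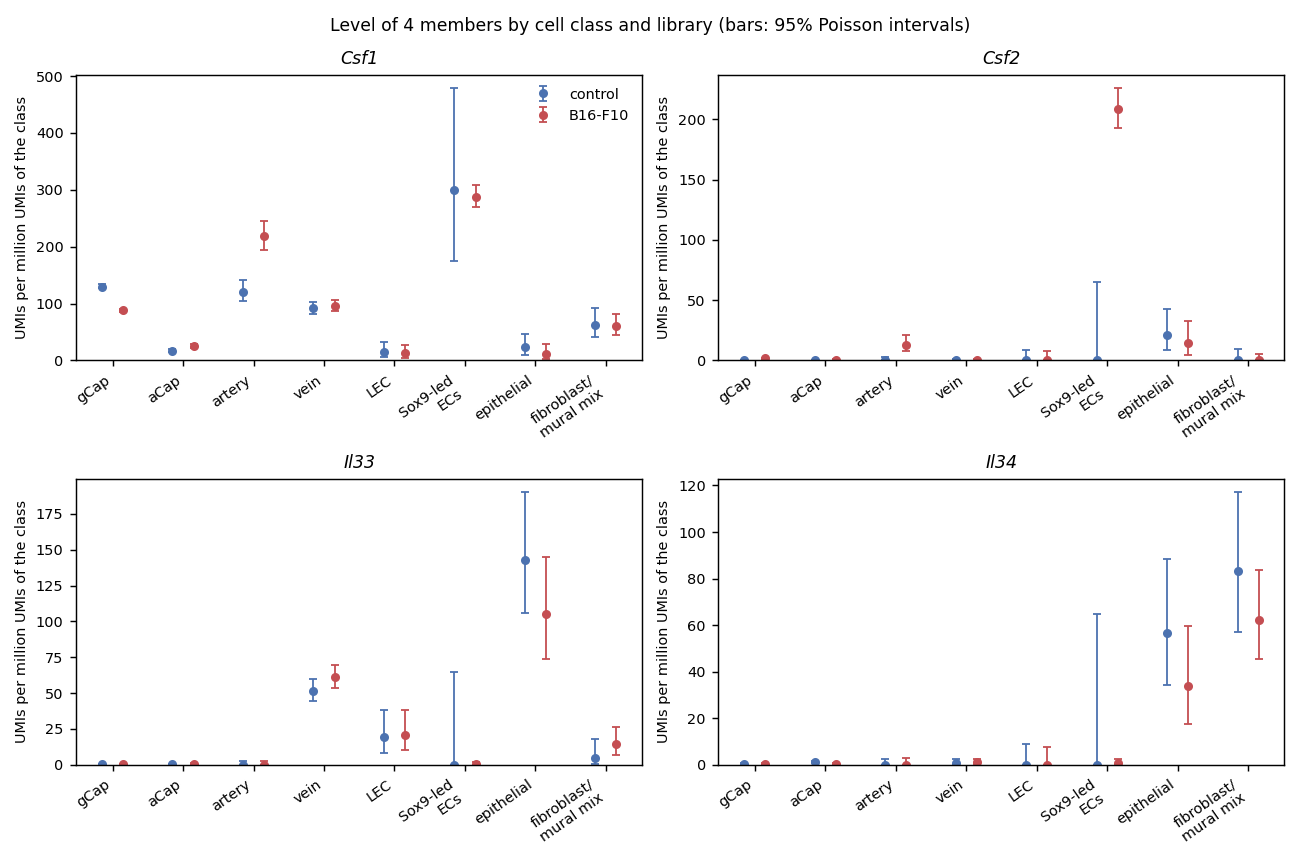
Level of Csf1, Csf2, Il33 and Il34 (UMIs in 1000000 UMIs of the class, points with 95% Poisson intervals) by cell class in the control and B16-F10 libraries, 1 panel for each gene on its own linear axis. Csf1 is present in all classes shown, Il33 is high in vein-like ECs (51.5 and 61.3), and Csf2 is at 0 in control ECs and reaches 209 in Sox9-led ECs of the B16-F10 library.

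Il34, the other ligand of Csf1r, was scarce in endothelium. All ECs held 34 and 27 UMIs, at 0.613 and 0.460 CPM, a log2 ratio of -0.41 (-1.20 to 0.36), above the 0.0345 and 0.0457 CPM that free RNA could supply. Of these, 16 and 18 UMIs were in gCap-like ECs, and aCap-like ECs held 14 and 3 (1.06 CPM, 0.578 to 1.77, and 0.274, 0.0565 to 0.801), with the 14 in 8 cells. The higher levels lay outside endothelium. The fibroblast and mural mix had 83.2 CPM (57.2 to 117) and 62.4 (45.3 to 83.7) and epithelial-like cells 56.7 (34.1 to 88.6) and 34.0 (17.6 to 59.4), and in each the intervals of both libraries overlapped.

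Il6 and Csf3 were close to the limit of detection. Il6 had 0 UMIs in control ECs and 7 in 4 B16-F10 ECs. Of the 7, 3 were in 1 Sox9-led cell, 2 in 1 LEC-like cell and 2 in vein-like cells. The Il6 level was 2.21-fold above the control floor (exact lower limit 1.36). Csf3 had 1 UMI in a control LEC-like cell and 0 in B16-F10 ECs, so no ratio is given. Barcodes with over 5000 genes, left out of the cells, held 11 Il6 UMIs and 2 Csf3 UMIs in the B16-F10 library and 1 and 0 in control. No member had 50 UMIs in LEC-like ECs.

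Receptors of the members were read in ECs and in the leukocytes that came through the sort. Of 11 listed receptors and decoys, 6 had 50 EC UMIs, with 0 past 2-fold higher, 1 lower and a median log2 ratio of 0.30, beside 3.49% higher, 3.46% lower and a median of -0.06 for all genes. In gCap-like ECs 3 had 50 UMIs, 0 were past 2-fold in either direction and the median was 0.43, beside 3.21% higher, 2.66% lower and -0.04 for all genes. The 1 that was lower was Csf2rb, the signalling chain for Csf2, with 97 and 51 EC UMIs (1.75 and 0.869 CPM, -1.01, -1.53 to -0.51). Of these UMIs, 80 and 12 lay in the unnamed ECs led by Fabp4, at 80.5 and 49.0 CPM in 173 and 35 cells, while gCap-like ECs held 12 and 28. Csf1r had 11 and 20 EC UMIs, against 203 and 490 CPM in macrophage and monocyte-like cells, 6 and 31 in number. Csf3r was 2864 and 3149 CPM in the 3 and 16 neutrophil-like cells. Il1rl1, the receptor of Il33, had 0 UMIs in ECs. Il6st, the shared signalling chain for Il6, was 263 and 356 CPM in all ECs (0.44, 0.41 to 0.47) and 793 and 980 in vein-like ECs.

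Among 20 other cytokines and growth factors, 9 had 50 EC UMIs, 1 was past 2-fold higher and 1 lower, with a median of -0.19, beside 3.49%, 3.46% and -0.06 for all genes. In gCap-like ECs 6 had 50 UMIs, 0 were past 2-fold and the median was -0.23, beside 3.21% higher, 2.66% lower and -0.04 for all genes. The lower was Il1a, an alarmin of the interleukin-1 family, at 4.65 and 1.47 CPM (-1.67, -2.04 to -1.31). Of its EC UMIs, 246 of 258 and 67 of 86 were in aCap-like ECs (18.6 and 6.12 CPM). The higher was Il1b, an inflammatory cytokine of myeloid cells, with 3 and 47 EC UMIs (3.89, 2.25 to 6.22). Il1b just met the limit of 50 UMIs, and only through the B16-F10 library, so its call as past 2-fold followed from that limit. Its EC level was 0.0541 and 0.801 CPM, where free RNA could supply 0.0661 and 0.411, and neutrophil-like cells held 8426 and 9979 CPM. Lif, a cytokine that signals through Il6st, had 1 and 48 EC UMIs, of which 39 were in Sox9-led cells, and Tnf 4 and 32, of which 19 were in Sox9-led cells. Lif and Tnf were named after their values had been seen, and neither reached 50 UMIs.

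Genes that control cytokine transcription and message decay were the third list. All 12 listed had 50 UMIs, and 4 were past 2-fold higher and 0 lower both in all ECs and in gCap-like ECs, with medians of 0.60 and 0.51, while 3.49% and 3.21% of all genes were past 2-fold higher and the medians of all genes were -0.06 and -0.04. This list, like the others, was chosen with earlier results of these data known, so its counts and directions are a description and no independent evidence. The 4 in all ECs were Cebpd, Zfp36, Nfkbiz and Cebpb. Cebpd, a C/EBP factor of the acute phase response, was 257 and 1117 CPM (2.12, 2.09 to 2.15), and the study lists it among its markers of responding capillaries, so its direction is no independent evidence. Zfp36, the protein that binds ATTTA sites, was 64.6 and 202 CPM (1.64, 1.59 to 1.70). Nfkbiz, a nuclear partner of NF-kB, was 12.3 and 36.9 CPM (1.58, 1.46 to 1.71), and Cebpb was 14.7 and 38.1 CPM (1.38, 1.26 to 1.49). In gCap-like ECs the same 4 had ratios of 2.17, 1.91, 2.15 and 1.54.

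**Figure D5:**
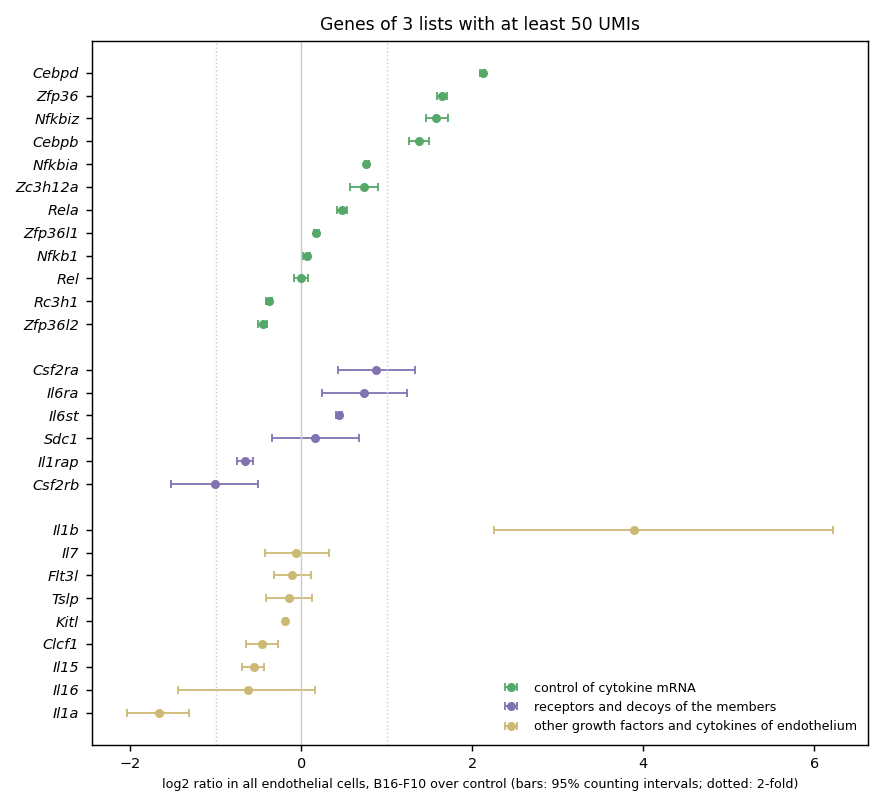
Log2 ratio (B16-F10 over control, all ECs) of each gene with at least 50 UMIs in the 3 gene lists, points with 95% counting intervals and dotted lines at 2-fold. Cebpd (2.12), Zfp36 (1.64), Nfkbiz (1.58), Cebpb (1.38) and, farthest out, Il1b (3.89, from 3 and 47 UMIs) lie past 2-fold higher, and Csf2rb (-1.01) and Il1a (-1.67) past 2-fold lower. Il1b met the limit of 50 UMIs only through the B16-F10 library.

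For the 3 members with at least 200 EC UMIs, genes of like pattern were ranked by Pearson's r of log2(CPM + 1) among 11914 genes over 24 points, each an EC cluster in 1 library with at least 50 cells. The points share libraries and depth, and the values are a description. Csf1 was followed most closely by Amotl1 (0.93), Ctsc (0.93), Tmem63a (0.90), Nectin1 (0.89) and Creb3l2 (0.89). Csf2 was followed by Vmp1 (0.91), Cebpz, Ipo5, AA467197 and Nol11 (0.90 each), and this rests mainly on 1 cluster, which held 612 of 705 EC UMIs. Il33 was followed by Gm5127, Gria3 and Slc6a2 (0.97 each), Col14a1 (0.95) and Fgl2 (0.94), of which Slc6a2 was among the vein markers.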

How the data were processed

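Single-cell RNA was measured in 2 libraries of sorted mouse lung cells, a control and a B16-F10 library. The deposited files hold raw UMI counts (unique molecular identifiers, 1 for each captured RNA molecule) by gene and barcode, for every barcode, which the authors neither normalized nor filtered. Their headers name Cell Ranger 7.2.0, and reads were mapped to mm10. The submitters' processing notes also name Seurat 4.4.0. The methods of the study give an earlier Cell Ranger version, and the labels name a v2 kit whose barcode set is smaller than the 1597090 and 1779952 barcodes listed. Whether intron reads were counted is not stated, which would change the UMIs of long genes.

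The limits of the study were used, 1000 to 5000 genes and mitochondrial UMIs below 20%. Doublets were called by simulated neighbours at 0.8% per 1000 cells, which removed 6.72% and 6.66% of cells. The 6 members, the gene lists and the study's capillary and interferon markers (except Kit, a gCap marker) were left out, which gave 2910 variable genes. Each gene's log values were centred and scaled within each library separately, which takes out differences between library means before clustering. Cells were clustered on 30 principal components and 20 neighbours at resolution 0.8 (leidenalg 0.10.2, scikit-learn 1.9.0, numpy 2.4.6, scipy 1.17.1, pandas 2.3.3, Python 3.11.15), which gave 24 clusters. A cluster took a class name from at least 3 and 50% of its markers, each 1.5-fold above the other clusters and in 10% of cells, and ECs needed 6 of 8 endothelial markers in 50% of cells. These thresholds were chosen once an initial clustering was known. EC clusters that also met a list of cells other than ECs, with a marker of it among their 10 leading genes, were set apart as mixed (657 cells in control and 1156 in B16-F10). Red cell markers were met without leading in 1 gCap and 1 aCap cluster (1414 and 425, and 620 and 83 cells) and in the ECs led by Fabp4, which were kept.

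UMIs were summed per library and class. Levels carry exact Poisson intervals, shares exact Clopper-Pearson intervals and ratios exact conditional binomial intervals, all at 95%. With 1 library a group no test was made, and a gene counted as past the fold at 2-fold with at least 50 UMIs over both libraries. A control count of 0 was set to a floor of 3 UMIs. A ratio or bound against this floor, also where printed as at least a value, is the observed level over the floor. Its exact lower 95% limit is smaller. The members and lists were chosen with earlier results of these data known. The text names all 6 members, of each gene list at most the 4 largest genes past 2-fold, and 5 genes of like pattern for members with 200 EC UMIs. Other genes are given as markers, receptors or leading genes, and Lif and Tnf fall outside this rule and were named after their values had been seen. The scripts were tested on simulated counts.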

Additional observations from a re-analysis of the deposited data

Results flagged for a closer look

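Csf2 was also found in barcodes that were not analysed as cells. In the B16-F10 library barcodes with 1 to 100 UMIs held 10.8 CPM of Csf2 against 0.353 in control (37 and 2 Csf2 UMIs). Barcodes with over 100 UMIs and under 300 genes held 8.45 against 0.286 (70 and 1). Barcodes with at least 300 and under 1000 genes held 6.91 against 0.552 (19 and 1), and those with over 5000 genes 7.96 against 1.07 (138 and 9). The control levels thus rest on few UMIs.

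Csf1 went in opposite directions between vessel classes under the same injection, with log2 ratios of 0.55 in aCap-like ECs, 0.85 in artery-like ECs and -0.57 in gCap-like ECs. The aCap value was 0.27 with clusters weighted as in control and -0.26 in the cluster that held 806 of its B16-F10 cells, and the artery value was 0.46 without the richest cell and 0.24 without the 10 richest cells. With 1 library for each group the difference between classes was not tested.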

How the results depend on the processing

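Of 139 values of 10 log2 ratios under other settings, 124 stayed within the counting interval of the reported ratio and 15 lay outside it. For Csf2, whose exact interval has no upper limit, the Poisson interval of the B16-F10 count over the floor was used instead. Ratios whose interval includes 0 changed sign in 3 cases, Il34 in all ECs from -0.41 to 0.07 with doublets kept and 0.03 at resolution 1.6, and Csf1 in vein-like ECs from 0.07 to -0.02 without the 10 richest cells. Thinning each cell to 2000 UMIs gave Csf1 ratios of -0.46 in gCap-like, 0.26 in aCap-like and 1.38 in artery-like ECs, and bounds for Csf2 of at least 2.33 in gCap-like and 5.86 in all ECs. Thinned shares of ECs with a UMI were 16.9% and 15.1% for Csf1 (41.0% and 39.9% unthinned), 0.929% for Csf2 in B16-F10 (1.47%), 0.554% and 0.725% for Il33 (1.67% and 2.30%) and 0.142% and 0.126% for Il34 (0.393% and 0.407%). Without the 10 richest cells of each library the Csf2 bounds were 2.10 in gCap-like and 6.96 in all ECs, and Csf1 in artery-like ECs was 0.24. With ratios centred on the median of all genes, the value was -0.08 for Csf1 in all ECs. The other settings were added after the data had been seen. Leaving out Sox9-led ECs gave -0.32 for Csf1 and at least 4.95 for Csf2 in all ECs, leaving out the richest cell gave 0.46 for Csf1 in artery-like and 3.68 for Csf2 in gCap-like ECs, and weighting clusters as in control gave Csf1 ratios of -0.43 in gCap-like and 0.27 in aCap-like ECs. The Sox9-led share of EC Csf2 was 86.8%, and 78.0%, 79.3% and 79.0% with at least 500 genes per cell, at resolution 1.6 and with only the 6 members left out of clustering. Where no construction of the setting shows it, the cause was not tested. Weighting cells or clusters equally gave no ratio for Csf2, which is at 0 in control. No paired analysis was possible because a single library stood for either treatment. Depth limits Csf3, Il6, Il34 and every LEC-like value, which rest on few UMIs.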
